A study of Rattus norvegicus with 6 samples.

Results

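The genes described here are markers of white blood cells (leukocytes) in the rat renal cortex: 4 genes carried by leukocytes in general, 12 markers of macrophages and other myeloid cells, 13 of T cells and natural killer (NK) cells, and 3 of B cells. The 32 genes were taken from a fixed list of leukocyte markers, matched by symbol, and a gene was measured where at least 1 of its microarray probes was well above background on 3 or more of the 6 arrays. Of the 32 genes, 29 had a probe whose accession mapped to them, and 27 were measured, among 31637 genes and unnamed transcripts tested in all. No probe mapped to the myeloid integrin gene Itgax or to the B cell genes Cd79a and Ms4a1, and the macrophage scavenger receptor Cd163 and the lymphocyte surface protein Cd5 had only probes too dim to be kept.

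A kidney holds resident macrophages between its tubules, a smaller number of T cells and NK cells, and the leukocytes of the blood left in its vessels. Macrophages take up debris and sense signals through receptors such as the one encoded by Csf1r, which they need to survive. T cells recognise antigen through the T cell receptor, whose signal is carried by the CD3 chains, while NK cells and cytotoxic T cells kill target cells with perforin and granzymes. In RNA from whole tissue, fewer cells of a type and less RNA per cell cannot be told apart.

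RNA of the renal cortex came from 6 male Sprague-Dawley (Crl:CD(SD)) rats, bought at an age of 5 weeks, and each animal was hybridised to 1 single-colour Agilent array. The control group of 3 animals received corn oil for 4 weeks, and the other 3 received tricresyl phosphate, an organophosphate additive of plastics and lubricants, at 200 mg/kg/day for 4 weeks. The comparison asks how these transcripts differ between the groups. Corn oil replicate 1 was alone on its slide and scan, and the other 5 arrays shared a slide and a scan, so values within the shared slide compare 2 corn oil with 3 tricresyl phosphate animals. The labelled tissue was checked against 10 proximal tubule markers, all of which were well above background on all 6 arrays. So were 9 of 10 hepatocyte markers, so detection alone does not tell the kidney from another tissue. Levels below are log2 processed signals relative to the array's 75th percentile, and a difference is the mean of the tricresyl phosphate animals minus the mean of the corn oil animals. A level describes 1 probe, so levels of different genes are not compared.

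No leukocyte marker differed between the groups at an adjusted limma p under 0.05. Of the 27 measured markers, 18 were lower and 9 higher with tricresyl phosphate, with a median difference of −0.13, where 59.2% of all genes tested were lower, 40.8% higher, and their median difference was −0.04. The limma adjusted p-values of the markers lay between 0.811 and 0.976. Over all genes 0% passed that threshold in either direction. At an unadjusted limma p under 0.05 stood 2 markers, Cd3d and Il7r, or 7.41% of the 27, beside 5.49% of all genes. Both were lower, where 3.86% of all genes were lower and 1.63% higher at that p. The groups did not overlap in 3 markers, Cd3d, Cd2 and Il7r, or 11.1%, beside 11.8% of all genes. All 3 were lower, where 7.95% of all genes did not overlap in that direction and 3.85% in the other. In 26 of the 27 markers the difference was smaller than the spread between animals of one of the groups, and Cd3d was the exception. The 95% interval of the difference lay inside a 2-fold change in either direction for 23 markers, and reached beyond it for Itgam, Mrc1, Aif1 and Cd3g. For neither of these counts, on spread and on intervals, was the share over all genes computed, so they are not read as particular to the markers.

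**Figure D1:**
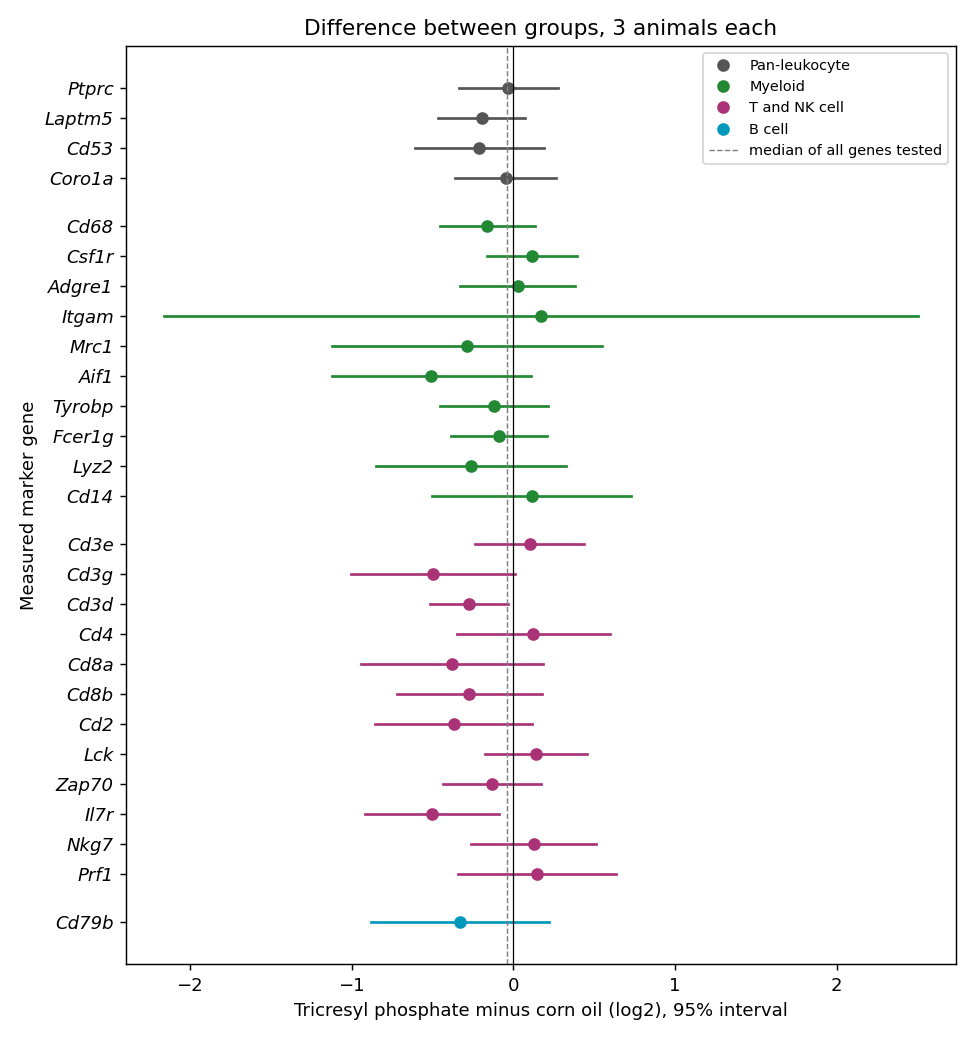
Difference between the groups (log2, tricresyl phosphate minus corn oil) for each of the 27 measured markers, as a point with its 95% interval from the limma fit over 3 animals per group, coloured by cell class. The dashed line is the median of all genes tested at −0.04, and the intervals of all markers but Cd3d and Il7r cover 0.

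The 4 pan-leukocyte genes were all slightly lower with tricresyl phosphate, by a median of 0.12 on the log2 scale, and none of them passed the test. Ptprc, which encodes CD45, the phosphatase on the surface of all nucleated blood cells, stood at 0.10, 0.06 and −0.27 in the corn oil animals and at 0.02, −0.12 and −0.10 in the tricresyl phosphate animals. The lowest of the 6 values was that of a corn oil animal, replicate 3, and the groups overlapped. The difference of Ptprc was −0.03 ± 0.13 (SE), and its sign turned within the shared slide (0.04). Laptm5, a lysosomal membrane protein of leukocytes, differed by −0.19 ± 0.11 (SE), and Cd53, a leukocyte tetraspanin, by −0.21 ± 0.16 (SE). Coro1a, an actin-binding protein of leukocytes, differed by −0.05 ± 0.13 (SE), and 0.04 within the shared slide. In all 4 genes corn oil replicate 3 was the lowest of the corn oil animals, and replicate 1 was the highest of them in 3, Cd53 being the exception.

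The promoters of 4 markers are shown to set a sequence feature, which the choice of markers did not use, beside their values: 2 pan-leukocyte genes, the macrophage gene Cd68, and Il7r, the marker with the smallest p. PU.1, an ETS transcription factor needed for the development of macrophages and B cells, binds purine-rich stretches with the core GAGGAA. Each sequence below is the RefSeq promoter of assembly GRCr8, from 250 bases before to 50 after the gene's start, read 5′ to 3′ on the gene's strand, with GAGGAA on either strand (TTCCTC on the other) in capitals. Cd53 lies at chr2:197087847-197088146 on the minus strand, Laptm5 at chr5:148371630-148371929 on the plus strand, Cd68 at chr10:54882392-54882691 on the minus strand and Il7r at chr2:60204868-60205167 on the minus strand.
Cd53: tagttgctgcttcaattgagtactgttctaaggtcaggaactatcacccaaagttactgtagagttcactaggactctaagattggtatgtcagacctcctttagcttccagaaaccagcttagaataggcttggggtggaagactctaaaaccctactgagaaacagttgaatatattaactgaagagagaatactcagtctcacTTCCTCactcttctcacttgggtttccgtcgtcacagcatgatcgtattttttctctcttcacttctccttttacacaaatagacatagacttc
Laptm5: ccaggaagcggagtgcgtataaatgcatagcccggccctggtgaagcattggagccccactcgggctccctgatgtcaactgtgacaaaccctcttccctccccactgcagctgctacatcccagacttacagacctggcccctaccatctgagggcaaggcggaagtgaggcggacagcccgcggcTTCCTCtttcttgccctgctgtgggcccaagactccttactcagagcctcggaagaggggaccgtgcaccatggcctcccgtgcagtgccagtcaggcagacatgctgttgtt
Cd68: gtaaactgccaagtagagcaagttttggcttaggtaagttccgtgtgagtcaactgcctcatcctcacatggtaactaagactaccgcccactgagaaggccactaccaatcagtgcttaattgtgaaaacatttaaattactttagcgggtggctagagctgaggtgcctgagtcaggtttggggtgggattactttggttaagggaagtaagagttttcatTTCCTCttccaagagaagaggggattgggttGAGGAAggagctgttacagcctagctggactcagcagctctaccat
Il7r: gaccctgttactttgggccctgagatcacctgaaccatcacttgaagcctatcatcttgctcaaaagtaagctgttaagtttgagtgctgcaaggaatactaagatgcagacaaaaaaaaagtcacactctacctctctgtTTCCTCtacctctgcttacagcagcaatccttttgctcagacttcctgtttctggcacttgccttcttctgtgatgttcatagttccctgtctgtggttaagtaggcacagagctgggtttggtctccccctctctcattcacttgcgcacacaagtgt
All 4 printed promoters hold GAGGAA, and markers without it, such as Coro1a, are not printed, so the printed set does not show how common it is. The letters GAGGAA occurred on either strand in 27.6% of all 33469 promoters of this length. Among markers with a promoter sequence they occurred in 3 of 4 pan-leukocyte genes (Ptprc, Laptm5 and Cd53), in 7 of 9 myeloid genes (Cd68, Csf1r, Adgre1, Itgam, Mrc1, Lyz2 and Cd14), in 4 of 11 T and NK cell genes (Cd3e, Cd2, Cd5 and Il7r) and in the 1 B cell gene, Cd79a. The letters TGTGGT, the core bound by RUNX factors, which act in lymphocyte development, occurred on either strand in 17.3% of all promoters, in 0 of the 4 pan-leukocyte genes, in 1 of the 9 myeloid genes (Itgam), in 5 of the 11 T and NK cell genes (Cd2, Lck, Il7r, Nkg7 and Prf1) and not in the B cell gene. TGTGGT is not marked in the printed sequences, although Il7r holds it. Neither motif is contained in the other, and a match is a description of the sequence only.

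Myeloid markers showed no common direction: 6 of the 10 measured were lower and 4 higher with tricresyl phosphate, with a median difference of −0.10, and none passed the test. Cd68, a lysosomal glycoprotein of macrophages, stood at 0.90, 1.08 and 0.76 in the corn oil animals and at 0.71, 0.65 and 0.90 in the tricresyl phosphate animals. The groups overlapped, with the highest value in corn oil replicate 2. Cd68 differed by −0.16 ± 0.12 (SE), and its other probe differed by −0.15. Csf1r, the receptor for macrophage colony-stimulating factor, stood at −1.02, −1.12 and −1.28 with corn oil and at −1.05, −0.88 and −1.14 with tricresyl phosphate. Here the highest value was that of tricresyl phosphate replicate 2, and the groups overlapped, with a difference of 0.12 ± 0.11 (SE). Adgre1, the F4/80 antigen of macrophages, differed by 0.03 ± 0.15 (SE), with signs that turned without corn oil replicate 3, tricresyl phosphate replicate 1 or tricresyl phosphate replicate 2 (−0.06, −0.05 and −0.005).

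Aif1, a calcium-binding protein of macrophages and microglia, had the largest difference among the myeloid markers. It stood at 3.23, 3.19 and 2.87 with corn oil and at 2.78, 2.04 and 2.94 with tricresyl phosphate. The value of tricresyl phosphate replicate 2 was well below the other 5, and tricresyl phosphate replicate 3 lay above the lowest corn oil animal. The difference was −0.51 ± 0.25 (SE), 0.70-fold, with a limma adjusted p of 0.811. Leaving out tricresyl phosphate replicate 2 gave −0.23. On the other 2 probes of Aif1 that animal was again the lowest, at 1.74 and 2.30, but close to tricresyl phosphate replicate 1, at 1.82 and 2.39. These probes differed by −0.29 and −0.31.

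Lyz2, the macrophage lysozyme, stood at 6.09, 6.36 and 5.50 with corn oil and at 5.87, 5.84 and 5.47 with tricresyl phosphate. The highest value belonged to corn oil replicate 2, and the lowest values were those of corn oil replicate 3 and tricresyl phosphate replicate 3. Lyz2 differed by −0.26 ± 0.24 (SE), and its other probe by −0.19. The adaptor genes Tyrobp and Fcer1g, whose proteins carry activating signals in myeloid and NK cells, differed by −0.12 ± 0.14 (SE) and −0.09 ± 0.12 (SE). Mrc1, the mannose receptor of tissue-resident macrophages, ranged over 1.21 among the 6 animals and differed by −0.29 ± 0.34 (SE). Cd14, the co-receptor for bacterial lipopolysaccharide, differed by 0.11 ± 0.25 (SE), and the sign turned without corn oil replicate 2 (−0.18), which had the lowest value, −1.14.

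Itgam, the CD11b integrin chain of macrophages and neutrophils, was at the limit of detection. Its only probe was well above background on 3 of the 6 arrays, 1 with corn oil and 2 with tricresyl phosphate, the fewest that were kept. The levels were −6.36, −6.15 and −5.67 with corn oil and −4.11, −8.08 and −5.47 with tricresyl phosphate, so the highest and the lowest value came from the same group. The difference of 0.17 ± 0.96 (SE) carries a 95% interval from −2.16 to 2.50. Just outside the limit lay Cd5, whose probe was well above background on 1 array, tricresyl phosphate replicate 3, with a processed signal of 28.7 against 12.9 to 17.8 on the other 5. All 3 probes of Cd163 stayed under that mark on every array: the highest processed signal over the 3 was 12.3, 8.53 and 11.3 in the corn oil animals and 5.60, 5.02 and 14.97 in the tricresyl phosphate animals.

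**Figure D2:**
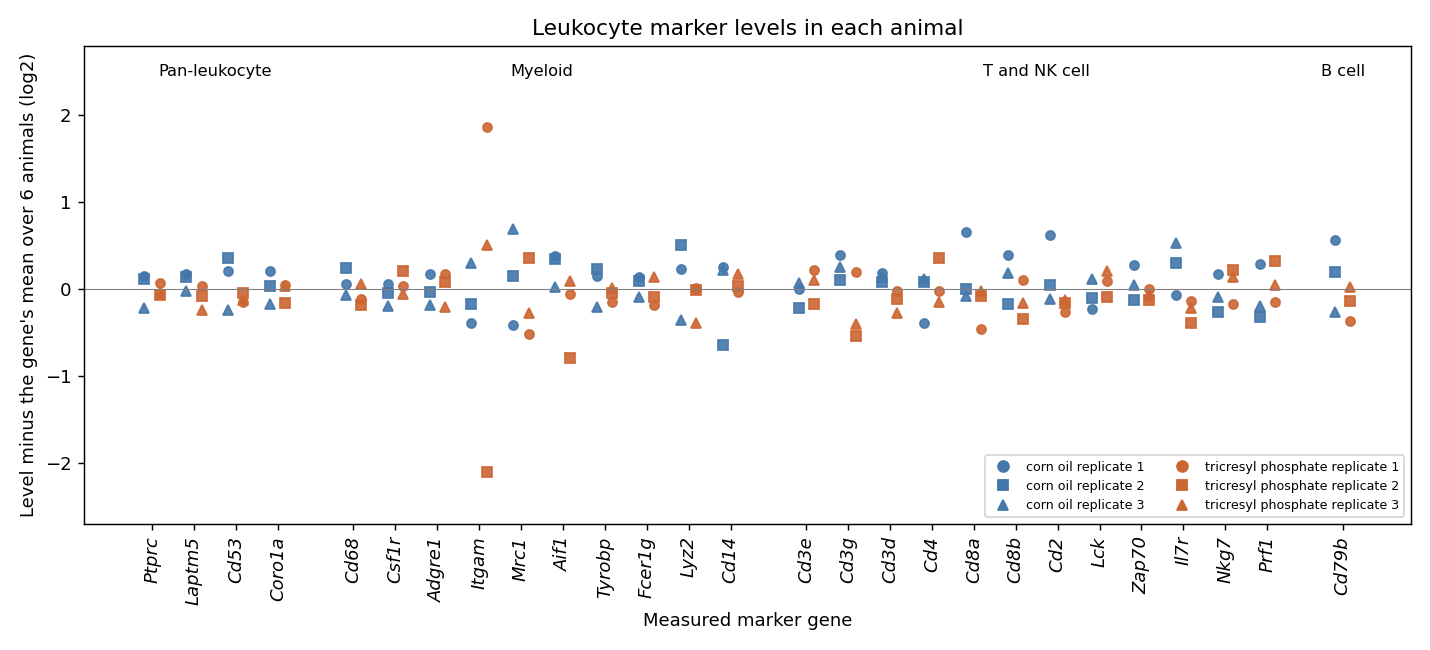
Level of each measured marker in each of the 6 animals, as log2 level minus the gene's mean over the animals, with corn oil in blue, tricresyl phosphate in orange and a symbol for each replicate. Itgam spans 3.97 among the animals, and the groups overlap in 24 of the 27 markers, the exceptions being Cd3d, Cd2 and Il7r.

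Of the 3 genes of the CD3 chains, Cd3d and Cd3g had negative differences and Cd3e a positive one. None passed the test, and differences between these genes were not tested. The 3 CD3 chains are encoded by neighbouring genes, with 0 genes between Cd3g and Cd3d and 0 between Cd3d and Cd3e in the RefSeq gene table. Cd3d, the delta chain, stood at −0.06, −0.16 and −0.10 in the corn oil animals and at −0.26, −0.36 and −0.52 in the tricresyl phosphate animals. All 3 tricresyl phosphate animals lay below all 3 corn oil animals. Corn oil animals averaged −0.11 ± 0.05 (SD, n = 3) and tricresyl phosphate animals −0.38 ± 0.13 (SD, n = 3), a difference of −0.27 ± 0.10 (SE), 0.83-fold, with a limma adjusted p of 0.811. Within the shared slide it was −0.25.

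Cd3g, the gamma chain, stood at −1.23, −1.52 and −1.37 with corn oil and at −1.43, −2.16 and −2.02 with tricresyl phosphate. Tricresyl phosphate replicates 2 and 3 were below every corn oil animal and replicate 1 was among them. The difference was −0.50 ± 0.21 (SE), 0.71-fold, with a limma adjusted p of 0.811. Cd3e, the epsilon chain, stood at −4.77, −4.99 and −4.70 with corn oil and at −4.55, −4.93 and −4.66 with tricresyl phosphate. It gave a difference in the other direction, 0.10 ± 0.14 (SE), and its groups overlapped. The Cd3e probe was dim, with processed signals from 34.4 to 47.7, where those of Cd3d ran from 844 to 1025 and those of Cd3g from 251 to 401.

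The co-receptor genes did not pass either. Cd8a, the alpha chain of the co-receptor of cytotoxic T cells, stood at −3.47, −4.13 and −4.21 with corn oil and at −4.59, −4.21 and −4.15 with tricresyl phosphate. Corn oil replicate 1 was well above the other 5 animals. The difference of −0.38 ± 0.23 (SE) became −0.14 within the shared slide, which leaves that animal out. Its partner chain gene Cd8b differed by −0.27 ± 0.18 (SE) and by −0.14 within the shared slide. Cd4, the co-receptor of helper T cells, which rat macrophages also carry, stood at −3.61, −3.13 and −3.11 with corn oil and at −3.24, −2.86 and −3.37 with tricresyl phosphate. Its 2 probes gave opposite signs, 0.12 and −0.61, and the mean over both was −0.24.

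Cd2, an adhesion molecule of T and NK cells, stood at −4.61, −5.20 and −5.36 with corn oil and at −5.50, −5.40 and −5.37 with tricresyl phosphate. The groups did not overlap, but corn oil replicate 3 and tricresyl phosphate replicate 3 almost touched. The probe was not well above background in 1 tricresyl phosphate animal. The difference was −0.37 ± 0.20 (SE), and −0.15 within the shared slide.

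Il7r, the interleukin-7 receptor chain on which T cell survival depends, had the smallest limma p among the markers. It stood at −4.41, −4.04 and −3.82 with corn oil and at −4.48, −4.73 and −4.56 with tricresyl phosphate. All tricresyl phosphate animals lay below all corn oil animals, with corn oil replicate 1 and tricresyl phosphate replicate 1 close together. The corn oil animals averaged −4.09 ± 0.30 (SD, n = 3) and those given tricresyl phosphate −4.59 ± 0.13 (SD, n = 3), a difference of −0.50 ± 0.17 (SE), 0.71-fold, with a limma adjusted p of 0.811. Within the shared slide the difference was −0.66. The other 3 kept probes of Il7r gave −0.36, −0.17 and −0.13, with overlapping groups, and the mean of the 4 probes gave −0.29. Under normexp background correction with quantile normalization several weak T cell signals gave smaller differences: −0.19 for Il7r, −0.003 for Cd2, −0.19 for Cd8a and −0.17 for Cd8b. That setting adds an offset of 50 to every signal, which by itself shrinks log2 differences of dim probes. The setting also starts from the median spot signal and the local background in place of the processed signal, and it changes the normalization. How much of the smaller differences came from each of these changes was not tested. Cd3d and Cd3g gave −0.25 and −0.40 there.

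Among the signalling and killing genes of lymphocytes, Lck, Nkg7 and Prf1 had small positive differences and Zap70 a negative one, and none passed the test. Lck, the kinase that starts signalling from the T cell receptor, differed by 0.14 ± 0.13 (SE), and Zap70, the kinase that follows it, by −0.13 ± 0.12 (SE). Nkg7, a cytotoxic granule protein, stood at 0.01, −0.43 and −0.25 with corn oil and at −0.33, 0.06 and −0.02 with tricresyl phosphate. Its difference was 0.13 ± 0.16 (SE). Prf1, perforin, stood at −1.28, −1.88 and −1.75 with corn oil and at −1.71, −1.24 and −1.52 with tricresyl phosphate, a difference of 0.15 ± 0.20 (SE). In both genes corn oil replicate 1 was the highest corn oil animal and tricresyl phosphate replicate 2 the highest of all, and the groups overlapped.

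Over the 12 measured T and NK cell markers 7 were lower and 5 higher, with a median of −0.20. The median was −0.09 without corn oil replicate 1, the animal alone on its slide. It was −0.07 under normexp background correction with quantile normalization, whose offset by itself shrinks log2 differences of dim probes. Cd79b, a signalling chain of the B cell receptor, was the only B cell marker measured. It stood at −4.35, −4.71 and −5.18 with corn oil and at −5.28, −5.05 and −4.89 with tricresyl phosphate, and it was not well above background in 1 tricresyl phosphate animal. The groups overlapped and the difference was −0.33 ± 0.23 (SE), and −0.12 under normexp, where the same offset applies.

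**Figure D3:**
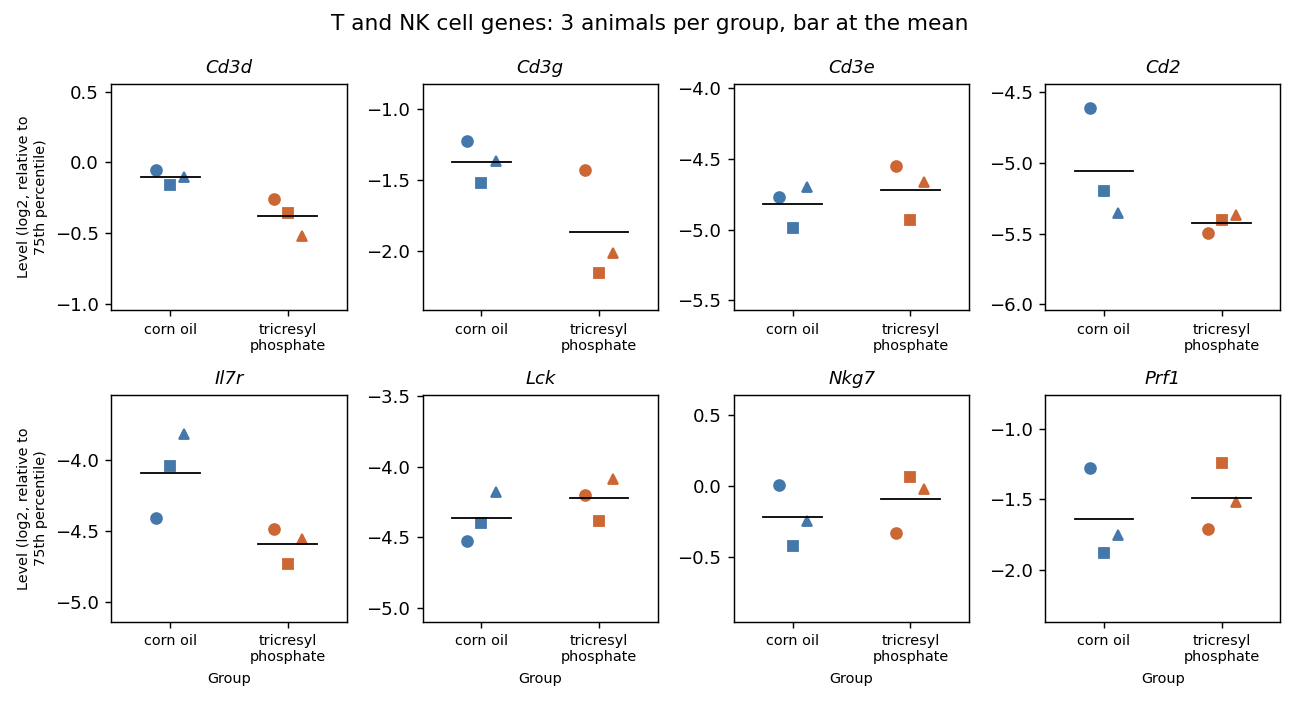
Level (log2, relative to the 75th percentile of the array) of 8 T and NK cell genes in each animal, with 3 corn oil animals in blue, 3 tricresyl phosphate animals in orange and a bar at each mean. All panels span the same range of log2 units. Cd3d, Cd2 and Il7r do not overlap between the groups, and the other 5 genes do.

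Animals of one group often differed from each other. Corn oil replicate 1 had the highest level of the 6 animals in 13 of the 27 markers and in 6 of the 12 T and NK cell markers, where over all genes it was the highest in 26.4%. Tricresyl phosphate replicate 2 was the lowest in 7 of the 27, beside 17.4% of all genes, and tricresyl phosphate replicate 3 in 4, beside 28.2%. Among the corn oil animals, replicate 3 was the lowest in 4 of 4 pan-leukocyte, 7 of 10 myeloid and 2 of 12 T and NK cell markers. The share of all genes in which it was the lowest corn oil animal was not computed. The mean level of the pan-leukocyte genes was 1.60, 1.58 and 1.25 in the corn oil animals and 1.42, 1.33 and 1.32 in the tricresyl phosphate animals. That of the T and NK cell genes was −2.65, −2.89 and −2.76 with corn oil and −2.89, −2.93 and −2.92 with tricresyl phosphate. The T and NK cell means did not overlap, but the lowest corn oil value, that of replicate 2, equalled the highest tricresyl phosphate value, that of replicate 1, to 2 decimals. The mean level of the myeloid genes was 0.60, 0.60 and 0.55 with corn oil and 0.64, 0.28 and 0.54 with tricresyl phosphate. Without Itgam, left out after its values were seen, the means were 1.37, 1.35 and 1.24 with corn oil and 1.16, 1.20 and 1.21 with tricresyl phosphate, and they did not overlap. Of those 9 genes 6 were lower, and the groups overlapped in each.

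Probes of one marker mostly shared their sign. Of 11 markers with several kept probes, 2 had probes of opposite sign, Cd4 and Ptprc. The 5 probes of Ptprc ranged from −0.19 to 0.08. Over all 44 kept probes of the markers, 32 gave a difference below 0, where 59.2% of all genes tested were below 0. The share over all kept probes was not computed. Several of the 44 probes belong to the same gene, so they are not separate observations. In 9 of the 11 markers the probe used gave the difference largest in size, Ptprc and Cd4 being the exceptions.

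**Figure D4:**
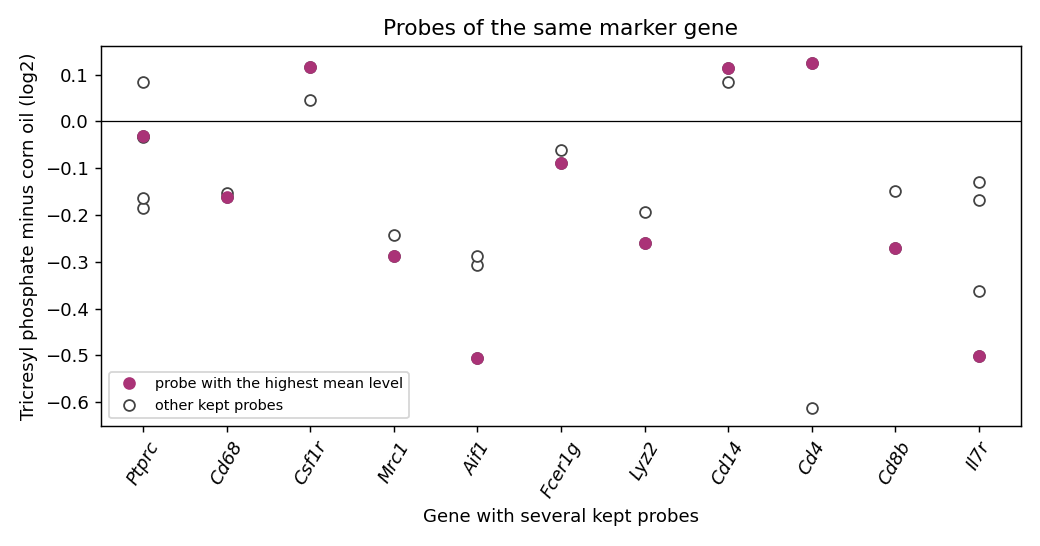
Difference between the groups (log2, tricresyl phosphate minus corn oil) for each kept probe of the 11 markers with several, with the probe used for the gene filled and the others open. Only Ptprc and Cd4 have probes on both sides of 0, and in the other 9 markers the probe used gives the difference largest in size.

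Further genes of the same cell types were taken from separate lists. Of 40 other macrophage and dendritic cell genes 32 were measured, 17 lower and 15 higher with a median of −0.04, which is that of all genes, and 0 passed the test, higher or lower. By p, Mpeg1, the perforin-like protein of macrophages, and Ctss, the lysosomal protease cathepsin S, came first. Mpeg1 stood at −4.47, −4.68 and −5.03 with corn oil and at −5.20, −5.31 and −5.46 with tricresyl phosphate, a difference of −0.60 ± 0.16 (SE). Its probe was dim, with processed signals from 27.4 to 44.7. Ctss stood at 2.41, 2.57 and 2.42 with corn oil and at 2.18, 2.30 and 2.20 with tricresyl phosphate, a difference of −0.24 ± 0.09 (SE). In both genes the groups did not overlap, which makes 6.25% of this list beside 11.8% of all genes, and their limma adjusted p was 0.811.

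Of 40 other T and NK cell genes 25 were measured, 17 lower and 8 higher with a median of −0.11, and 0 passed in either direction. Ctla4, an inhibitory receptor of activated and regulatory T cells, differed by −0.35 ± 0.12 (SE) without overlap of the groups, and Foxp3, the transcription factor of regulatory T cells, by 0.39 ± 0.19 (SE), also without overlap. The mean over the 2 kept probes of Foxp3 had the other sign, −0.27. Cd247, the zeta chain of the T cell receptor complex, was the remaining gene of this list without overlap, with a difference of −0.39 ± 0.20 (SE), and it was singled out after its values were seen. These 3 genes are 12% of the list, beside 11.8% of all genes. The granzyme genes Gzma, Gzmb, Gzmk and Gzmm differed by −0.30, −0.04, −0.11 and −0.04. Of 24 other B and plasma cell genes 16 were measured, 6 lower and 10 higher with a median of 0.04, and 0 passed. The smallest p-values belonged to Btk, a kinase of the B cell receptor, and Cd22, an inhibitory receptor of B cells, with differences of −0.32 ± 0.16 (SE) and −0.48 ± 0.28 (SE). The Cd22 probe was well above background in 3 corn oil animals but only 1 tricresyl phosphate animal. Its processed signals ran from 13.5 to 31.1, so Cd22 was near the limit of detection. Limma adjusted p-values of all these genes were at least 0.811.

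**Figure D5:**
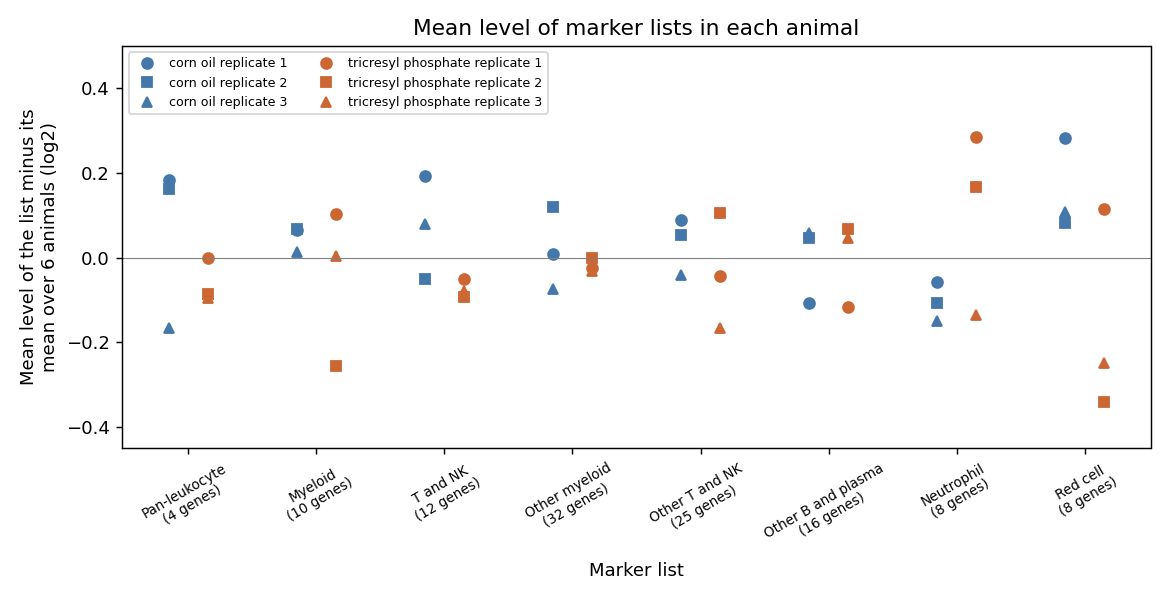
Mean level in each animal of 8 marker lists (pan-leukocyte, myeloid, T and NK cell, the further leukocyte lists, neutrophil and red cell), as log2 level minus the list's mean over the 6 animals, with corn oil in blue, tricresyl phosphate in orange and a symbol for each replicate. Corn oil replicate 1 is the highest animal for the pan-leukocyte, T and NK cell and red cell lists, and among these 8 lists only the T and NK cell list has groups that do not overlap, by less than the plot can show.

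Markers of other cell types were set beside the leukocyte lists. Of 10 red cell markers 8 were measured, all well above background on all 6 arrays, and 7 were lower with tricresyl phosphate, with a median of −0.32. Their mean level ranged from 2.31 to 2.51 with corn oil and from 1.89 to 2.35 with tricresyl phosphate, and corn oil replicate 1 had the highest level in 6 of the 8. The groups did not overlap in 3 of the 8, all lower, or 37.5%, beside 11.8% of all genes. Slc4a1 was the 1 gene that was higher, by 0.08 ± 0.25 (SE), and which cells its signal came from was not tested. Epb42, a red cell membrane protein, and Alas2, the erythroid enzyme of haem synthesis, had the smallest p, with differences of −0.31 ± 0.09 (SE) and −0.34 ± 0.10 (SE). The part of blood in the leukocyte values was not tested. Of 10 adipocyte markers 6 were measured, with a mean level from −0.72 to −0.59 with corn oil and from −0.48 to −0.20 with tricresyl phosphate, and these ranges did not overlap. Without Fabp4, left out after its values were seen, the means ranged from 0.06 to 0.23 with corn oil and from 0.11 to 0.19 with tricresyl phosphate and overlapped. Both sets of means include Pck1, whose levels of 7.60 to 7.95 raise them. Which cells the Pck1 signal came from was not tested, so these means are not a measure of adipocytes alone. Lep and Retn were not well above background on enough arrays to be kept, and Fabp4, a fatty acid carrier that macrophages and capillary cells also make, differed by 1.73 ± 0.46 (SE), and Cidec, a lipid droplet protein, by −0.51 ± 0.33 (SE). The part of these cells in the leukocyte values was not tested. Of 10 endothelial markers 9 were measured, with a mean level from 0.39 to 0.55 with corn oil and from 0.42 to 0.67 with tricresyl phosphate. Flt1 and Tie1, receptors of endothelial cells, differed by 0.56 ± 0.15 (SE) and 0.25 ± 0.08 (SE). The groups did not overlap in 33.3% of the 9 endothelial markers, 2 higher and 1 lower, beside 11.8% of all genes. All 10 hepatocyte markers were measured. Their mean level in an animal ranged from −1.65 to 0.63 with corn oil and from −0.68 to 0.26 with tricresyl phosphate, the widest spread between animals among the lists. Tf and Ttr differed by −0.60 ± 0.19 (SE) and 1.48 ± 1.46 (SE). In 3 further lists the smallest p-values belonged to Col1a1 and Pdgfrb of fibroblasts and pericytes (−0.38 and 0.21), Slc13a3 and Lrp2 of the proximal tubule (−0.15 and −0.13) and Aqp3 and Scnn1g of the collecting duct (0.18 and 0.14). In these 3 lists and the adipocyte and hepatocyte lists, the groups did not overlap in 10% to 16.7% of the measured genes. No gene of any list in this paragraph passed the test.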

How the data were processed

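Single-colour Agilent arrays of the renal cortex of 6 rats were used. Feature Extraction of Agilent was the authors' quantification tool. Its version is 10.7 in the submitters' processing notes, while the file headers give 10.7.1.1. As deposited, the intensity is the processed signal, linear, background-subtracted and detrended within the array, with flags per spot. The authors' value table holds the same intensity divided by 1 number per array (coefficient of variation of the ratio at most 0.00147% over bright probes), so it is linear and uncentred, with column medians from 0.1094 to 0.1152. Further steps of the authors are not given in the sources used here.

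Non-control probes (61537) were named by unversioned accession through the RefSeq table of GRCr8: 28206 had 1 symbol, 0 several and 33331 none. Values were log2 processed signals minus the array's 75th percentile. The 77 outlier spots were set missing, and no spot was saturated. Each array had 41503 to 43823 probes well above background, and the number of arrays limits the precision. Probes well above background on at least 3 arrays were kept (43099), and the brightest kept probe stood for a gene. The 2 groups were fitted by limma 3.58.1 under R 4.3.3 (lmFit, eBayes). Tests were two-sided, and p-values were adjusted by Benjamini-Hochberg over all 31637 genes, with 0.05 as the threshold. SE and 95% intervals come from this fit, which was tested on simulated data. Replicates are separate animals per the labels. The members, lists and alternatives were chosen with earlier results of these data known. Values in every animal are given, where measured, for Ptprc, Cd68, Csf1r, Cd163, Cd3e, Cd4, Cd8a, Cd79a and Ms4a1, for the 3 with the smallest p among myeloid and among T and NK cell markers, and for those near the detection limit or without overlap of the groups. From each other list the 2 genes with the smallest p are named, except for 1 list that is not reported here. Promoter sequences are from RefSeq, assembly GRCr8, and 25 of the 32 genes had one. Alternatives were other normalizations, the authors' table, other filters, other treatments of probes and outlier spots, another variance model, slide and replicate blocks and leaving out each array.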

Additional observations from a re-analysis of the deposited data

How the results depend on the processing

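No marker passed the threshold under any of the 16 alternatives, and the limma adjusted p of the markers was at least 0.693 in all of them. The slide as a block and leaving out corn oil replicate 1, the animal alone on its slide, gave the same result. They are not separate checks. Over all genes 0 were called higher in each alternative, and the number called lower was 2 under normexp background correction with quantile normalization, 2 with an intensity trend and robust variance, and 0 to 1 when an array was left out (1 each without tricresyl phosphate replicate 2 or 3). Markers at an unadjusted limma p under 0.05 numbered 1 under normexp, 1 with the mean of the kept probes, 1 with the slide as a block, 4 with the replicate block, 3 each under quantile normalization, the filter for all 6 arrays and the intensity trend with robust variance, and 1 to 4 when an array was left out (4 with corn oil replicate 3 left out and 3 with tricresyl phosphate replicate 1 left out), against 2. The cause of these changes was not tested. The replicate block takes the labels' replicate numbers, and deviations from the group means correlated at 0.09, −0.05 and −0.04 for equal numbers, so the numbers were not taken to pair the animals. It gave 0 calls, 1927 genes at an unadjusted p under 0.05 against 1737, and changed no other call.

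When an array was left out, median differences ranged from −0.20 to −0.06 for pan-leukocyte, −0.14 to −0.06 for myeloid, −0.26 to −0.0900 for T and NK cell and −0.54 to −0.13 for B cell markers, and from −0.102 to −0.000294, −0.155 to −0.0448 and −0.0953 to 0.0607 for the other myeloid, T and NK, and B and plasma cell genes. The T and NK cell median was −0.0692 under normexp and −0.0900 with the slide as a block. Normexp added an offset of 50 to every signal, which by itself shrinks log2 differences of dim probes. The part of the offset in the normexp values was not tested. Signs turned with the slide as a block for Ptprc (0.0371), Coro1a (0.0445) and Cd4 (−0.0378), and with the mean of the kept probes for Cd4 (−0.24) and Foxp3 (−0.27). Signs also turned in some fits without 1 array for Ptprc (−0.15 to 0.0371), Coro1a (−0.14 to 0.0445), Adgre1 (−0.0576 to 0.139), Itgam (−0.72 to 1.27), Cd14 (−0.18 to 0.270) and Cd4 (−0.0378 to 0.232). The filter for all 6 arrays left no B cell marker. For markers with weak signals (Itgam, Cd2, Cd79b), which were not well above background on every array, signal over background limits the values. Cd3e, Lck, Il7r and Cd8a were well above background on all 6 arrays but were also dim, with processed signals from 34.4 to 84.6, and share this limit. Among genes of the other lists, Mpeg1, Cd22, Btk, Ctla4 and Foxp3 were dim as well.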

Other observations

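Neutrophil and mast cell genes lie outside the marker list. Of 14 neutrophil genes 8 were measured, 6 higher and 2 lower with tricresyl phosphate, with a median of 0.13. Ngp, a granule protein of neutrophils, stood at −6.34, −6.11 and −5.37 with corn oil and at −3.91, −5.64 and −5.19 with tricresyl phosphate, and was well above background in 1 and 2 animals. Fcnb, a ficolin of neutrophils and monocytes, differed by 0.47 ± 0.23 (SE) with overlapping groups. The granule genes Elane, Ltf and Mmp8 were not well above background on enough arrays to be kept. Of 13 mast cell and eosinophil genes 6 were measured, 2 higher and 4 lower with a median of −0.08. Kit, the stem cell factor receptor, which tubular and interstitial cells can also carry, differed by 0.28 ± 0.19 (SE), and the mast cell tryptase gene Tpsab1 by −0.12 ± 0.10 (SE). Of the 2 probes of Tpsab1, 1 was kept, and which cells its signal came from was not tested. Cpa3, Ms4a2, Cma1, Fcer1a, Epx and Mcpt10 were not well above background on enough arrays to be kept. No gene of either list passed the limma test.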
